A study of Mus musculus with 9 samples.

Results

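This account follows heat shock proteins and other chaperones in spinal cord during experimental autoimmune encephalomyelitis (EAE), a model of multiple sclerosis in which the immune system attacks brain and spinal cord. The genes taken were Hspa5, Hspa8, Hspb1, Hspd1, Hspe1, Hsph1, Hsp90ab1, Dnaja1 and Cryab, and each probe set annotated with 1 of these symbols was used. This gave 10 of the 12488 probe sets, for 8 of the 9 genes, and all 10 were among the 12177 tested. No probe set carried the symbol Hsp90ab1 in the annotation used, and that gene was not analysed here. Spinal cord RNA of B10.PL mice was measured on 9 one-colour arrays, 3 per group: EAE treated with 200 ng calcitriol (1,25(OH)2D3, the active vitamin D hormone; replicates 6, 7 and 8), EAE with placebo (replicates 1, 5 and 10), and naive mice as controls (replicates 2, 3 and 4). The EAE cords were taken 6 h after treatment. The labels give the naive mice neither placebo nor a time, so EAE and the handling of treated mice cannot be told apart in comparisons with naive cord. Calcitriol replicate 6 is titled 1,25(OH)2D2 but described as 1,25(OH)2D3, and the array was kept in its group.

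Chaperones bind unfolded or damaged proteins, keep them from clumping and pass them through cycles of folding. Each compartment has its own set: HSP70 and HSP90 machines with J-domain helpers in the cytosol, the Hsp60 and Hsp10 ring in mitochondria, and BiP with its partners in the endoplasmic reticulum, while small heat shock proteins hold unfolded proteins without using ATP. Heat shock factor 1 switches on heat shock genes, cytosolic ones among them, through inverted GAA repeats. The unfolded protein response switches on the reticulum genes through ER stress response elements. In nervous tissue neurons carry much constitutive Hspa8, while astrocytes and oligodendrocytes carry Cryab, the lens protein alpha B-crystallin.

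RefSeq promoter windows on GRCm38.p6, from 250 bases before to 50 after a start site, were found for 6 of the 9 genes, in 10 windows. There was no entry for Hspa8, Hsp90ab1 and Cryab. The 150 bases before the start are shown for 3 genes that stand for these 2 control systems: Hspa5 for the unfolded protein response, Hspe1 for the heat shock element it shares with Hspd1, and Hspb1 for separate GAA pairs. Capitals mark an ER stress response element in Hspa5 (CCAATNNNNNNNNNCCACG), a pair of overlapping 3-unit heat shock elements in Hspe1 (GAANNTTCNNGAA or its reverse complement), and the pair GAANNTTC in Hspb1. Hspa5 is at chr2:34771940-34772089, Hspe1 at chr1:55087998-55088147 and Hspb1 at chr5:135887769-135887918, all on the plus strand and written 5′ to 3′.
Hspa5: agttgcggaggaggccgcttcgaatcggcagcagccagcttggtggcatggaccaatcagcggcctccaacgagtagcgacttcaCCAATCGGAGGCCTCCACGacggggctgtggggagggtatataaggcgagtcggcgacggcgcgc
Hspe1: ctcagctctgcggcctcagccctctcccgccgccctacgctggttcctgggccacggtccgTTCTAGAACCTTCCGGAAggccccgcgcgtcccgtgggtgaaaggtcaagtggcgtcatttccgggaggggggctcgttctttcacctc
Hspb1: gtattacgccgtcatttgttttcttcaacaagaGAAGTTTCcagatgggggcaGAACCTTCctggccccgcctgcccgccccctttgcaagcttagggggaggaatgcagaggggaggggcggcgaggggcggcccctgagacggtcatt

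Both strands were searched. The ER stress response element was in 0.119% of all 32851 windows and began 65 bases before the Hspa5 start. The 3-unit element was in 0.603% of windows. The marked Hspe1 stretch begins 89 bases before that gene's start, and read on the other strand it begins 144 bases before an Hspd1 start, with 215 bases between the starts of these genes. The Hsph1 windows held 1 such element, just after the start, and the pair TTCNNGAA before it. The pair GAANNTTC, which the longer element contains, was in 7.86% of windows and TTCNNGAA in 8.52%. Hspb1 held GAANNTTC at 117 and 97 bases before its start, and 1 of 3 Dnaja1 windows held it at 124 bases. These matches describe letters in the windows and show no binding.

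The naive arrays were less alike than the EAE arrays. Across probe sets, the log2 signals of array pairs had correlations of 0.899 to 0.938 among calcitriol arrays and 0.921 to 0.936 among placebo arrays, against 0.765 to 0.878 among naive arrays. Naive replicate 2 was the highest of all 9 arrays for 19.97% of tested probe sets and the lowest for 17.5%, and naive replicate 4 was the highest for 21.0% and the lowest for 14.8%. Signal of the actin control probe sets at the 5′ end relative to the 3′ end was between -1.11 and -0.42 (log2) on the 6 EAE arrays and between -0.25 and 0.12 on the naive arrays, so this measure of RNA integrity moved with the disease groups, and its part in the differences from naive was not tested. Markers of neurons (7 of 8 listed genes measured), oligodendrocytes (6 of 7) and astrocytes (5 of 6) included none at the floor on all arrays. Summed markers of other cells a cord sample could hold were 1376 to 1640 with calcitriol and 1276 to 1337 with placebo against 1506 to 1599 in naive cord for T cells (6 of 7 genes), and 585 to 684 and 572 to 618 against 478 to 651 for skeletal muscle (6 of 6). They were 281 to 369 and 257 to 362 against 247 to 362 for endothelium (4 of 4), and 65.7 to 217 and 145 to 209 against 66.9 to 111 for the 1 measured Schwann cell gene of 3.

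No chaperone probe set passed the threshold in any of the 3 comparisons, an adjusted p of 0.05 in limma over all tested probe sets. The nearest was Hspa5, which encodes BiP, the HSP70 of the endoplasmic reticulum: its signal was 1.83-fold higher in calcitriol-treated EAE cord and 1.65-fold higher in placebo-treated EAE cord than in naive cord. Hsph1 was 1.55-fold lower in calcitriol-treated than in naive cord. The differences between calcitriol and placebo lay between -0.66 (Hspb1, which was -0.28 with a higher floor) and 0.39 (1 of the Cryab probe sets) on the log2 scale.

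In placebo-treated EAE against naive cord, 0 of 10 passed, where 0.936% of all tested probe sets did. At an unadjusted p under 0.05 there were 2, Hspa5 and Hspe1, both higher, where 9.33% of all probe sets reached it. The groups did not overlap for 1, Hspe1, against 14.5% of all. In calcitriol-treated against placebo-treated EAE, 0 of 10 passed, 0 reached an unadjusted p under 0.05 and 0 were without overlap, where 0%, 2.58% and 9.99% of all probe sets did. In calcitriol-treated EAE against naive cord 0 of 10 passed, against 2.00% of all probe sets. There Hspa5 was higher and Hsph1 lower at an unadjusted p under 0.05, a level 11.9% of all reached, and the same 2 were without overlap, as were 16.1% of all. The median log2 difference of the 10 was 0.056 for placebo against naive (all tested -0.018), -0.064 for calcitriol against placebo (all -0.0012) and -0.11 for calcitriol against naive (all -0.017). Both comparisons with naive share the naive arrays, so they are given side by side only.

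**Figure D1:**
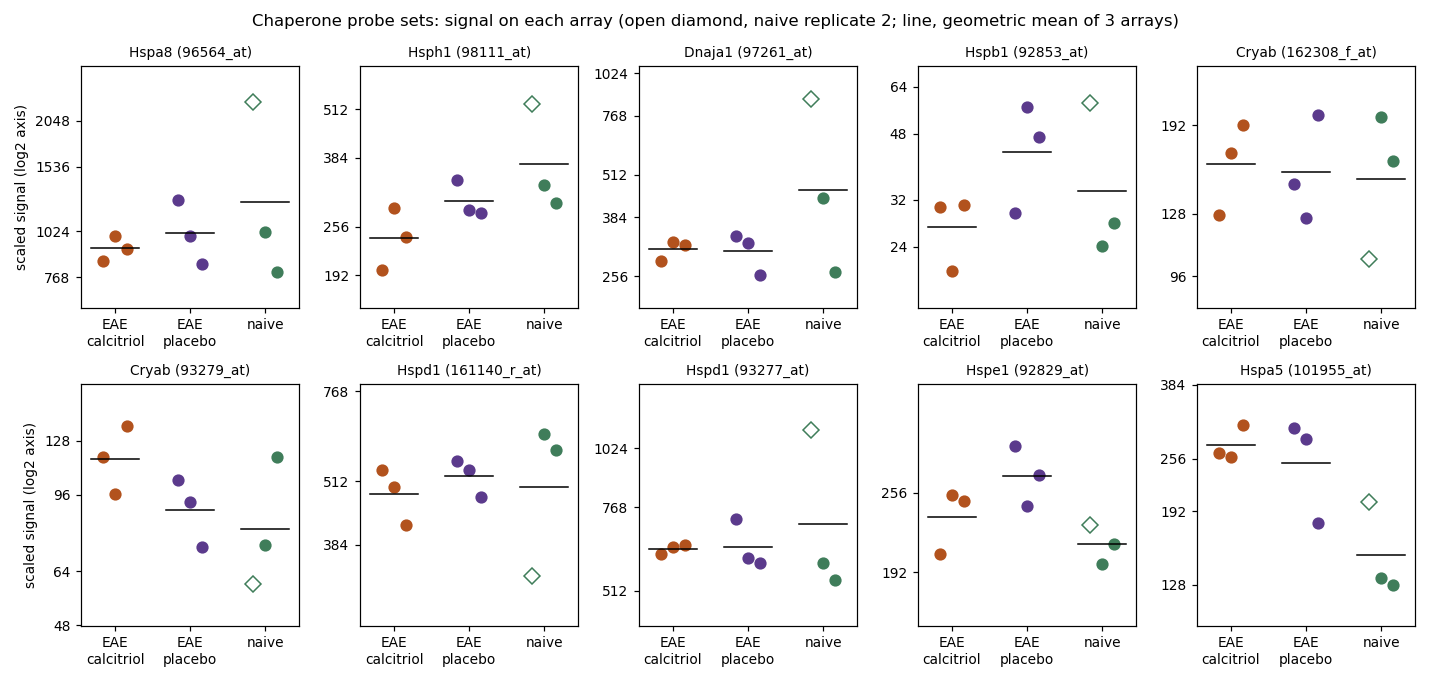
Scaled signal (log2 axis) of each chaperone probe set on each array, with calcitriol-treated EAE, placebo-treated EAE and naive arrays from left to right and a line at the geometric mean of 3 arrays. The open diamond is naive replicate 2, which is the highest of 9 arrays for 5 of the 10 probe sets and the lowest for 3.

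Hspa5 differed most between EAE and naive cord. Its signal was 264, 259 and 308 with calcitriol and 303, 285 and 179 with placebo, against 202, 133 and 128 on the naive arrays. All calcitriol arrays lay above all naive arrays, whereas placebo replicate 10 lay below naive replicate 2. The means were 277 ± 27.0 with calcitriol and 256 ± 67.0 with placebo, against 154 ± 41.3 in naive cord (SD, n = 3 each). The log2 difference from naive was 0.87 ± 0.25 (SE) with calcitriol (95% interval 0.32 to 1.43, adjusted p = 0.144). With placebo it was 0.73 ± 0.25 (0.17 to 1.28, adjusted p = 0.339). Leaving out naive replicate 2 changed the call for calcitriol, to 1.08 ± 0.23 with an adjusted p of 0.0338, and gave 0.94 for placebo with an adjusted p of 0.0943. Other arrays left out gave smaller placebo differences too. The placebo difference ran from 0.58 without placebo replicate 1 (adjusted p = 0.705 in limma) to 0.96 without placebo replicate 10 (adjusted p = 0.161). Without naive replicate 4 it was 0.61 (adjusted p = 0.437). Calls over all probe sets for placebo against naive, where Hspa5 did not pass, also rose without naive replicate 2, from 114 to 176. For calcitriol against naive there were 244 such calls with all arrays, and their range with 1 array left out is given at the end. Calcitriol against placebo gave 0.15 (-0.41 to 0.70, adjusted p = 1). In a bulk cord, more or fewer cells of a type and more or less RNA per cell cannot be told apart. Markers of myeloid cells were also higher in EAE cord. The summed signal of 8 of 8 genes was 4113 to 6348 with calcitriol and 3664 to 4621 with placebo, against 2057 to 2205 in naive cord. The mean was above naive for 7 of 8 genes with calcitriol and 8 of 8 with placebo. Past the threshold were 5 of 8 for calcitriol and 2 for placebo. Their part in the Hspa5 values was not tested.

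The cytosolic HSP70 genes Hspa8 and Hsph1 and their helper Dnaja1 each had their highest value on naive replicate 2. Hspa8 encodes Hsc70, the constitutive HSP70 that folds new proteins and uncoats clathrin vesicles, and its signal was 852, 993 and 918 with calcitriol and 1247, 993 and 836 with placebo, against 2306, 1022 and 792 in naive cord. All 6 EAE values lay between those of naive replicates 4 and 2, so the groups overlapped fully. The log2 difference from naive was -0.42 with calcitriol (-1.19 to 0.34, adjusted p = 0.692) and -0.28 with placebo (-1.05 to 0.48, adjusted p = 0.862). Without naive replicate 2 both signs turned, to 0.031 with calcitriol and 0.17 with placebo. Calcitriol against placebo was -0.14 (-0.90 to 0.63).

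Dnaja1, a J-domain protein that delivers substrates to Hsc70 and stimulates its ATPase, had signals of 285, 324 and 317 with calcitriol and 338, 321 and 258 with placebo, against 860, 436 and 265 in naive cord. Naive replicates 2 and 3 lay above every EAE array and naive replicate 4 lay among them. The log2 difference from naive was -0.59 with calcitriol (-1.37 to 0.19, adjusted p = 0.573) and -0.61 with placebo (-1.39 to 0.17, adjusted p = 0.682). Without naive replicate 2 these were -0.14 and -0.16. Without naive replicate 4 instead, the placebo difference was -1.01 (adjusted p = 0.184 in limma). Calcitriol and placebo differed by 0.022 (-0.76 to 0.80).

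Hsph1 encodes Hsp110, which exchanges the nucleotide on HSP70 and helps it to dissolve aggregates. Its signal was 198, 285 and 241 with calcitriol and 336, 282 and 278 with placebo, against 528, 327 and 295 in naive cord. All 3 calcitriol arrays lay below all 3 naive arrays, and placebo replicate 1 overlapped the naive range. The means were 241 ± 43.5 with calcitriol and 299 ± 32.7 with placebo, against 383 ± 126 in naive cord (SD, n = 3 each). The log2 difference of calcitriol from naive was -0.64 ± 0.23 (SE; -1.16 to -0.11, adjusted p = 0.288), and that of placebo was -0.32 (-0.84 to 0.20, adjusted p = 0.753). Without naive replicate 2 they were -0.38 (adjusted p = 0.318) and -0.062. Calcitriol against placebo was -0.32 (-0.84 to 0.20). Summed neuron markers were also lower on every EAE array than on every naive array. They were 3347 to 4015 with calcitriol and 3816 to 5248 with placebo, against 5351 to 10860 in naive cord. The top value was on naive replicate 2, as were the top astrocyte and oligodendrocyte sums (10120 and 6675). In each comparison with naive, 0 of the 7 measured neuron genes passed the threshold and 2 had the higher mean in EAE. The part of these markers in the Hspa8, Dnaja1 and Hsph1 values was not tested.

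Naive replicate 2 was above both other naive arrays in 7 of the 10 chaperone probe sets (70%), against 34.9% of all tested probe sets. Among 120 probe sets of other chaperone genes, taken up below, the share was 48.3%. It was 30.8% of 13 for the other cytosolic HSP70, HSP110 and HSP90 genes and 20% of 5 for other small heat shock proteins. Other J-domain proteins had 62.5% of 16, and the cytosolic chaperonin and prefoldin 58.8% of 17. Relative to the mean log2 signal of naive replicates 3 and 4 it was 2.56-fold higher for Hspa8, 2.53-fold higher for Dnaja1, 2.24-fold higher for Hspb1, 1.98-fold higher for the plain Hspd1 probe set and 1.70-fold higher for Hsph1. The other Hspd1 probe set was 1.83-fold lower and the Cryab probe sets were 1.73-fold and 1.55-fold lower. This is 1 array, so the pattern has no replicate.

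**Figure D2:**
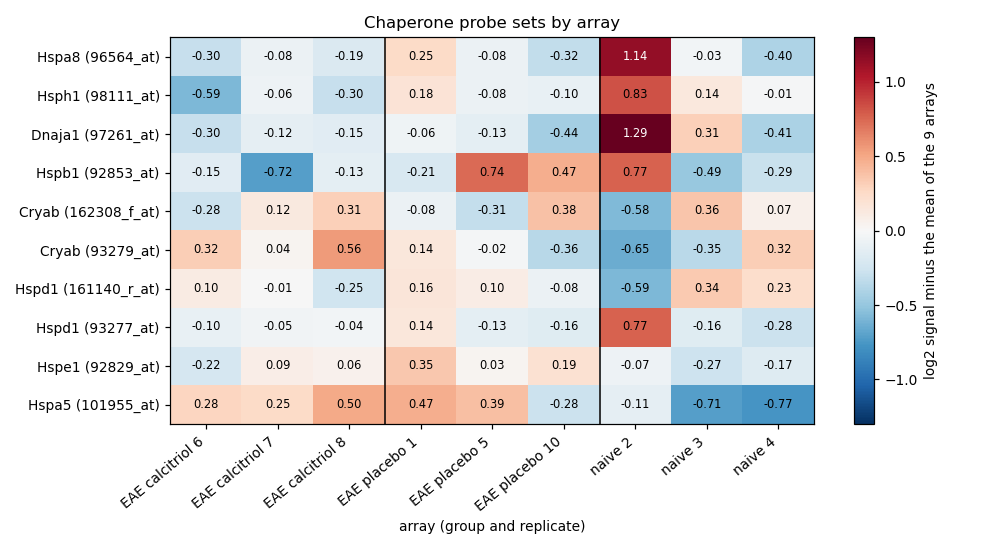
Each cell is the log2 signal of a chaperone probe set on 1 array minus its mean over the 9 arrays, red above and blue below, with calcitriol-treated EAE (6, 7, 8), placebo-treated EAE (1, 5, 10) and naive arrays (2, 3, 4) from left to right. The column of naive replicate 2 holds 1.14 for Hspa8 and 1.29 for Dnaja1. The bottom row shows Hspa5 below its mean on all naive arrays and on placebo replicate 10 (-0.28, against -0.11 on naive replicate 2).

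Of the small heat shock proteins, Hspb1 encodes Hsp27, which caps actin filaments and holds unfolded proteins. Its signal was 30.7, 20.7 and 31.1 with calcitriol and 29.5, 56.6 and 47.1 with placebo, against 58.0, 24.1 and 27.7 in naive cord. A pair of placebo arrays lay above all calcitriol arrays and the third lay among them, and the naive arrays spanned nearly the whole range. The means were 27.5 ± 5.91 with calcitriol and 44.4 ± 13.8 with placebo (SD, n = 3 each). The log2 difference of calcitriol from placebo was -0.66 ± 0.42 (SE; -1.61 to 0.28, unadjusted p = 0.145 and adjusted p = 1 in limma). These signals lie near the floor of 19.3 units, though none was at it, and a floor of 20% of the common mean in place of 10% gave -0.28, with 0.085 for placebo against naive and -0.20 for calcitriol against naive. Against naive cord the difference was -0.32 with calcitriol (-1.26 to 0.62, adjusted p = 0.826) and 0.34 with placebo (-0.60 to 1.28, adjusted p = 0.866), and without naive replicate 2 it was 0.064 and 0.73.

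Cryab encodes alpha B-crystallin, a small heat shock protein of glia, lens and muscle, and it had 2 probe sets. The plain one read 118, 96.5 and 138 with calcitriol and 104, 92.4 and 72.9 with placebo, against 59.9, 73.5 and 118 in naive cord. Calcitriol arrays were mostly the higher ones, but all groups overlapped. Calcitriol against placebo was 0.39 ± 0.30 (-0.28 to 1.05, adjusted p = 1). Against naive cord it was 0.53 ± 0.30 with calcitriol (-0.13 to 1.20, adjusted p = 0.541) and 0.14 with placebo (-0.52 to 0.81, adjusted p = 0.934), and without naive replicate 2 it was 0.32 and -0.067. The other probe set, whose name marks probes that may detect a family of sequences, read 127, 169 and 192 with calcitriol and 147, 125 and 201 with placebo, against 104, 199 and 163 in naive cord. No order of the groups was visible there: the difference was 0.053 (-0.59 to 0.70) for calcitriol against placebo, 0.098 for calcitriol against naive and 0.045 for placebo against naive. The astrocyte and oligodendrocyte markers, from cells that carry Cryab, summed to 5245 to 8009 and 3791 to 6231 with calcitriol and to 7598 to 8697 and 5370 to 5938 with placebo, against 5746 to 10120 and 5396 to 6675 in naive cord. The top sums of both lists were on naive replicate 2, where both Cryab probe sets had their lowest value. The part of these markers in the Cryab values was not tested.

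The mitochondrial pair Hspd1 and Hspe1 encodes Hsp60 and its lid Hsp10, which together form the folding ring of the matrix. Hspe1 read 205, 254 and 248 with calcitriol and 304, 244 and 273 with placebo, against 228, 198 and 213 in naive cord. The 3 placebo arrays lay above the 3 naive arrays, while calcitriol replicate 6 lay inside the naive range. The means were 236 ± 26.8 with calcitriol and 273 ± 30.0 with placebo, against 213 ± 15.1 in naive cord (SD, n = 3 each). The log2 difference of placebo from naive was 0.36 ± 0.15 (SE; 0.015 to 0.70, unadjusted p = 0.0426 and adjusted p = 0.494 in limma). For calcitriol it was 0.15 from naive (-0.20 to 0.49, adjusted p = 0.779) and -0.21 from placebo (-0.56 to 0.13, adjusted p = 1).

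Hspd1 had 2 probe sets, and they disagreed on naive replicate 2. The plain one read 614, 634 and 639 with calcitriol and 724, 600.3 and 587 with placebo, against 1116, 587 and 541 in naive cord. The other, whose name marks probes chosen under relaxed design rules, read 539, 498 and 420.4 with calcitriol and 560.4, 537 and 476 with placebo, against 334, 634 and 588 in naive cord. Naive replicate 2 was thus the highest of 9 arrays on 1 probe set and the lowest of 9 on the other, and the EAE arrays overlapped the naive arrays on both. Calcitriol against naive was -0.17 (-0.72 to 0.38) on the plain probe set and -0.046 (-0.57 to 0.47) on the other, and placebo against naive was -0.16 and 0.068. Without naive replicate 2 the plain one gave 0.16 and 0.17 and the other -0.34 and -0.22, so the probe sets stood on opposite sides of 0. Calcitriol against placebo was -0.013 (-0.57 to 0.54) and -0.11 (-0.63 to 0.41).

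**Figure D3:**
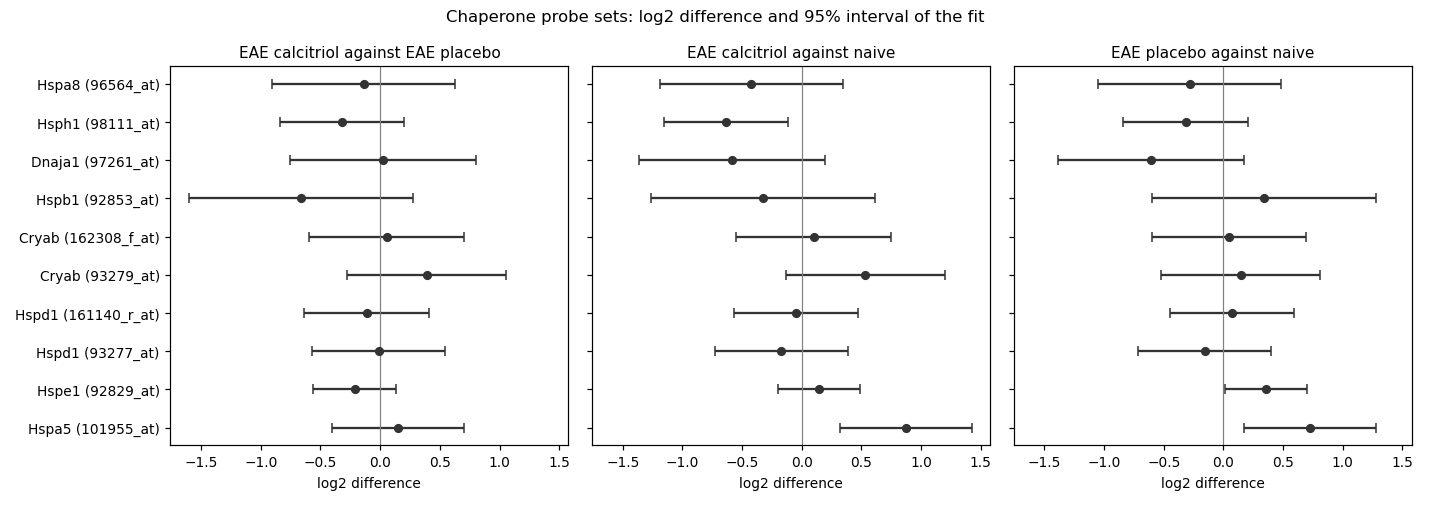
Log2 difference of each chaperone probe set with its 95% interval, in panels for calcitriol against placebo, calcitriol against naive and placebo against naive. Intervals clear of 0 are those of Hspa5 and Hsph1 for calcitriol against naive and of Hspa5 and Hspe1 for placebo against naive, and none of these passed the adjusted threshold.

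The intervals set what these arrays could show. The median 95% interval of the 10 probe sets reached 0.60 to either side of the log2 difference, against 0.64 over all tested probe sets. For calcitriol against placebo the interval of every chaperone probe set held 0, and a missing call there does not show equal levels.

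Other genes of the same systems were taken from a list of 102 genes in 8 roles, of which 83 were measured by 120 tested probe sets. None of the 120 passed the threshold in any comparison in limma. At an unadjusted p under 0.05 there were 9 higher and 2 lower for placebo against naive, 0 and 0 for calcitriol against placebo, and 9 higher and 8 lower for calcitriol against naive. These are 9.17%, 0% and 14.2% of the list, against 9.33%, 2.58% and 11.9% of all tested probe sets, so the list as a whole lay near the background against naive. The median log2 difference was 0.026, -0.049 and -0.033 in that order of comparisons. The role that lay farthest from the median of all probe sets in placebo against naive was the endoplasmic reticulum chaperones, the compartment of Hspa5: 18 of 25 probe sets had the higher mean with placebo, 6 of them at an unadjusted p under 0.05 and 0 lower, with a median of 0.45. Over all tested probe sets 47.7% had the higher mean, and 5.54% were higher and 3.79% lower at that p. For calcitriol against naive 19 of 25 had the higher mean, 5 at an unadjusted p under 0.05 and 0 lower, with a median of 0.30, where 48.0% of all had the higher mean and 6.68% were higher and 5.26% lower at that p. The 25 probe sets measure 16 genes, and the list was written with earlier results of these data known. Nothing particular to this role was tested. Without naive replicate 2 these medians were 0.37 and 0.41. For calcitriol against placebo the median was 0.012.

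J-domain proteins, the HSP70 helpers of the Dnaja1 family, lay on the other side: 4 of 16 probe sets had the higher mean with calcitriol and 3 of 16 with placebo than in naive cord, with medians of -0.23 and -0.19, and 2 and 1 were lower at an unadjusted p under 0.05. Over all tested probe sets 48.0% and 47.7% had the higher mean, and 5.26% and 3.79% were lower at that p. Naive replicate 2 was the highest of 9 arrays for 9 of these 16, against 19.97% of all tested probe sets. Co-chaperones of HSP70 and HSP90 had medians of -0.22 with calcitriol and -0.057 with placebo against naive, and the cytosolic HSP70, HSP110 and HSP90 genes -0.21 and -0.16. The cytosolic chaperonin and prefoldin had -0.087 and 0.15, mitochondrial chaperones -0.10 and 0.037, small heat shock proteins 0.099 and 0.14, and the regulators of both responses 0.26 and 0.19. Leaving out naive replicate 2 turned the chaperonin median for calcitriol to 0.099 and gave -0.12 and -0.16 for the J-domain proteins, -0.14 and -0.11 for the co-chaperones and -0.14 and 0.060 for the mitochondrial chaperones (calcitriol, then placebo). Calcitriol against placebo gave medians from -0.14 (mitochondrial chaperones) to 0.083 (regulators) over the 8 roles.

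**Figure D4:**
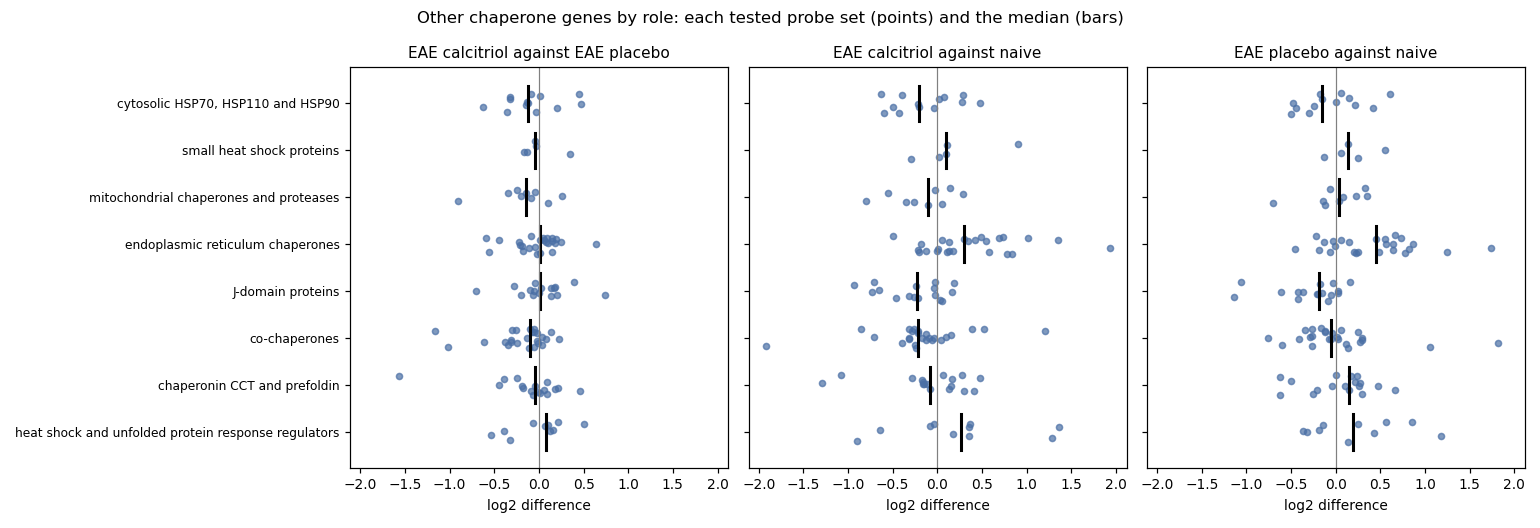
Log2 difference of each of the 120 tested probe sets of the other chaperone genes (points) and the median of each role (bars), in panels for calcitriol against placebo, calcitriol against naive and placebo against naive. The endoplasmic reticulum chaperones have medians of 0.30 and 0.45 in the panels against naive and 0.012 in the panel of calcitriol against placebo.

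Among these genes the smallest unadjusted p for placebo against naive was that of Manf, a secreted protein of the endoplasmic reticulum that protects neurons. It read 175, 237 and 266 with calcitriol and 256, 261 and 245 with placebo, against 134, 171 and 144 in naive cord. All EAE arrays lay above all naive arrays, with log2 differences of 0.58 ± 0.19 for calcitriol (adjusted p = 0.206) and 0.77 ± 0.19 for placebo (adjusted p = 0.130). P4hb, the protein disulfide isomerase PDI, read 101, 92.2 and 100.1 with calcitriol and 113, 112 and 80.0 with placebo, against 54.8, 49.5 and 68.0 in naive cord. Calcitriol and placebo overlapped, and both lay above all naive arrays, at 0.78 ± 0.24 (adjusted p = 0.189) and 0.82 ± 0.24 (adjusted p = 0.240). Its other probe set, named as designed under relaxed rules, went the other way, at -0.21 and -0.13 (adjusted p = 0.666 and 0.870).

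Dnajc5, the cysteine string protein of synaptic vesicles, had the third smallest p for placebo against naive and lay in the other direction. It read 60.7, 93.6 and 123 with calcitriol and 51.6, 108 and 81.0 with placebo, against 225, 146 and 147 in naive cord. The 6 EAE values lay below the 3 naive values, at -0.93 ± 0.35 for calcitriol (adjusted p = 0.316) and -1.14 ± 0.35 for placebo (adjusted p = 0.279). The neuron marker sums given above were also lower on the EAE arrays, though 2 of the 7 genes had the higher mean. Their part in the Dnajc5 values was not tested.

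For calcitriol against naive the smallest p values belonged to Hspa4l, Pdia6 and Serpinh1. Hspa4l, an HSP110 relative of Hsph1, read 167, 200.1 and 169 with calcitriol and 217, 201 and 166 with placebo, against 234, 273 and 308 in naive cord. The 6 EAE arrays were lower than the 3 naive arrays, at -0.60 ± 0.17 for calcitriol (adjusted p = 0.152) and -0.48 ± 0.17 for placebo (adjusted p = 0.379). Pdia6, another disulfide isomerase, read 172, 179 and 203 with calcitriol and 157, 179 and 165 with placebo, against 108, 53.7 and 130 in naive cord on 1 of its 3 probe sets. This gave 1.02 ± 0.30 for calcitriol (adjusted p = 0.161) and 0.87 ± 0.30 for placebo (adjusted p = 0.349), while its other probe sets gave 0.30 and 0.13 for calcitriol.

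Serpinh1, the collagen chaperone Hsp47, read 227, 210 and 227 with calcitriol and 167, 202 and 216 with placebo, against 73.1 and 139 on naive replicates 2 and 3, and it was listed at 0 on naive replicate 4. The naive array at 0 was set to the floor, and the log2 differences of 1.93 ± 0.57 for calcitriol (adjusted p = 0.161) and 1.74 ± 0.57 for placebo (adjusted p = 0.317) rest partly on it. The 3 smallest p values for calcitriol against placebo belonged to Tcp1, Pdia4 and Hspa1a, each with an adjusted p of 1. Tcp1, a subunit of the cytosolic chaperonin, read 179 and 170.1 on calcitriol replicates 6 and 7, was listed at 0 on replicate 8, and read 253, 301 and 199 with placebo. The other Tcp1 probe set differed by -0.012 between calcitriol and placebo. Pdia4 read 56.7, 58.9 and 63.7 with calcitriol and 64.3, 119 and 89.5 with placebo, at -0.56 ± 0.30. Hspa1a, a heat-inducible HSP70, read 95.6, 87.8 and 75.5 with calcitriol and 73.9, 51.2 and 65.6 with placebo, at 0.45 ± 0.25. Its close relative on the list, Hspa1b, went the other way, at -0.32 ± 0.44.

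Hsp90b1, the HSP90 of the endoplasmic reticulum (Grp94), is added here after its values were seen because it passed without naive replicate 2. It read 647, 788 and 863 with calcitriol and 880.1, 905 and 798 with placebo, against 804, 466 and 426 in naive cord. Naive replicate 2 lay among the EAE arrays and the other naive arrays lay below them all. The log2 difference was 0.49 ± 0.23 for calcitriol (adjusted p = 0.454) and 0.67 ± 0.23 for placebo (adjusted p = 0.351) with all arrays. Without naive replicate 2 it was 0.77 ± 0.14 (adjusted p = 0.0201) and 0.95 ± 0.14 (adjusted p = 0.0140). For placebo against naive, calls over all probe sets then rose from 114 to 176. For calcitriol against naive there were 244 with all arrays, and their range with 1 array left out is given at the end.

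Probe sets with the most similar course over the 9 arrays were found for the 3 genes with the widest range of group means, by the root mean square difference of mean-centred log2 signal. For Hspa5 they were Gsr at 0.122, Eps8 at 0.128 and Psmd11 at 0.134, where the median over all probe sets was 0.59. For Hsph1 they were Aplp2 at 0.063, Dennd5a at 0.087 and Fkbp4 at 0.088, against a median of 0.50. For Hspb1 they were Atg16l1 at 0.276, Calcoco2 at 0.276 and Urm1 at 0.281, against a median of 0.62, so its nearest neighbours were less close.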

How the data were processed

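Per the labels, total RNA of mouse spinal cord was hybridised to 1-colour arrays. The deposited values are linear intensity signals. Their scaling and summarisation by the authors are not given in the sources used here. Probe-level images were not analysed. Here each array was scaled to a common trimmed mean of 192.8 (2% trimmed at each end). Values under 10% of that mean (19.3) were raised to it before taking log2. Without the 66 control probe sets 12422 remained, and the 12177 that exceeded the floor on 3 or more of the 9 arrays were tested. No chaperone value among the 10 probe sets was at the floor. The 3 comparisons came from 1 fit over all arrays in limma 3.58.1 (R 4.3.3; lmFit and eBayes with an intensity trend, 6 residual degrees of freedom), and p-values were adjusted by Benjamini-Hochberg over all tested probe sets. The fit was tested on simulated data. Plots used Python 3.11.15, pandas 2.3.3 and matplotlib 3.10.9.

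Symbols came from the platform annotation: 10855 probe sets had 1 symbol, 396 several and 1237 none. Named genes were all chaperone probe sets, the 3 smallest p of the wider list per comparison, and the 3 most similar probe sets of 3 genes. Hsp90b1 and Hspa1b were added to these after their values were seen. The genes, lists and tests were chosen with earlier results of these data known. The labels give no batch and do not say whether replicates are separate animals, so the spread behind the p-values is that between samples and may be technical. The number of arrays limits the precision. Alternatives covered scaling, floor, filter, zeros, variance model, array weights, groups in the fit and each array left out.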

Additional observations from a re-analysis of the deposited data

How the results depend on the processing

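The 30 log2 differences of the chaperone probe sets gave 297 values under 10 other settings, of which 7 turned sign, and 270 values with 1 array left out, of which 22 did. In all, 15 differences turned sign at least once and 2 passed the threshold at least once, both of Hspa5; the cause was not tested. Hspb1 was too dim for the filter on the mean and has no value there. With array quality weights, 1 chaperone probe set passed in each comparison with naive (Hspa5, 1.03 with calcitriol and 0.90 with placebo, adjusted p 0.00953 and 0.0222), as did 8 and 6 of the wider list (6.67% and 5.00%, against 8.33% and 5.25% of all tested probe sets). Naive replicate 3 then held 86.7% of the weight of the naive group, so these values set EAE mostly against 1 array. The weights turned Hspb1 to 0.0064, plain Hspd1 to 0.069 and the family Cryab probe set to -0.17 for calcitriol against naive, and plain Hspd1 to 0.076, the other Hspd1 to -0.21 and the family Cryab to -0.32 for placebo against naive. Unscaled values turned the other Hspd1 to 0.071 for calcitriol against naive and moved the median of all probe sets to 0.094 there and to 0.11 for placebo against naive. Calls over all probe sets for calcitriol against naive were 244, then 1014 with weights, 118 with only the 2 groups fitted and 75 to 392 leaving out 1 array. For placebo against naive they were 114, then 176 with exact zeros as missing, 639 with weights, 61 with 2 groups and 20 to 176 leaving out 1 array, and for calcitriol against placebo 0, and 0 to 1.

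Leaving out 1 array in turn gave 0 to 1 chaperone calls for calcitriol against naive (1 without naive replicate 2) and 0 to 1 on the wider list in each comparison with naive. Signs turned over these ranges for calcitriol against naive: Hspa8 -0.74 to 0.031, Hspb1 -0.57 to 0.064, Hspd1 -0.36 to 0.16 (plain) and -0.34 to 0.13, and Cryab -0.17 to 0.30 (family). For placebo against naive they were Hspa8 -0.60 to 0.17, Hspd1 -0.35 to 0.17 (plain) and -0.22 to 0.24, and Cryab -0.067 to 0.42 (plain) and -0.22 to 0.25. For calcitriol against placebo they were Hspa5 -0.091 to 0.29, Hspa8 -0.28 to 0.013, plain Hspd1 -0.069 to 0.082, Dnaja1 -0.095 to 0.098 and family Cryab -0.098 to 0.24. No paired analysis was possible because the groups share no replicate numbers.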
